A study of Mus musculus with 9 samples.

Results

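The carbonic anhydrases measured here were 9 genes, Car2, Car3, Car4, Car5b, Car8, Car11, Car12, Car13 and Car14, taken as every probe set annotated to exactly 1 of these symbols. They are 9 of the 18194 genes that had such a probe set, and were read by 20 of the 45101 probe sets on the array. The samples were choroid plexus, the tissue in the brain ventricles that secretes cerebrospinal fluid, cut out of frozen tissue by laser capture. The 4 apoE-/- and 5 wild-type samples came from male C57BL mice aged 78 weeks and fed normal chow, with 1 array per sample. The apoE-/- mice lack apolipoprotein E, a carrier of lipids. The comparison asks how these genes differ in old choroid plexus without that protein. Neither the number of animals behind a capture nor the way the allele was made is given in the sources used here. The errors given below therefore measure sample-to-sample spread, part of which may be technical.

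Carbonic anhydrases are zinc enzymes that interconvert carbon dioxide and water with bicarbonate and a proton. In choroid plexus epithelium they supply the bicarbonate and protons that ion exchangers trade across the cell membrane during secretion of cerebrospinal fluid, and inhibitors of these enzymes lower that secretion. The family is sorted by where the enzyme acts. Car2, Car3 and Car13 are cytosolic, Car5b lies in mitochondria, Car4 is tied to the outer face of the membrane by a lipid anchor, and Car12 and Car14 span the membrane with the catalytic domain outside the cell. Car8 and Car11 are carbonic anhydrase-related proteins that lack the enzymatic activity.

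The tissue and genotype labels were checked first. Apoe had a deposited signal of 12.2 to 53.8, called absent, on the 4 apoE-/- arrays, against 18252 to 23953.1, called present, on the 5 wild-type arrays. Each array called 44.0% to 49.1% of its probe sets present. Of 12 epithelial marker genes 10 were on the array with a single symbol and all 10 were tested, with a list mean of 13.96 to 13.99 in apoE-/- and 13.94 to 14.05 in wild-type arrays on the log2 scale. The oligodendrocyte mean over 4 tested markers was 9.02 to 9.55 in apoE-/- and 9.04 to 10.04 in wild-type arrays, with wild-type replicate 1 highest, while Mog and Mag were never called present. The neuron mean over 7 tested markers was 6.81 to 7.05 in apoE-/- and 6.87 to 7.66 in wild-type arrays, again highest in wild-type replicate 1, and the macrophage mean over 6 was 10.12 to 10.59 against 9.65 to 10.10. In tissue of several cell types, fewer cells of a type and less RNA per cell cannot be told apart.

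Of the 9 genes, 5 were detected on every array by at least 1 probe set: Car2, Car4, Car8, Car12 and Car14. A detection call is the array software's verdict, present, marginal or absent, on whether a probe set read above background. Of the 20 probe sets, 7 were called present on all 9 arrays and 5 were never called present. A probe set was tested when at least 4 of the 9 arrays called it present, which 13 of the 20 did, from 8 of the 9 genes. Car11 had no tested probe set. Signals of different probe sets depend on their probes and are not set against each other here, save as a ratio within an array for probe sets of 1 gene.

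**Figure D1:**
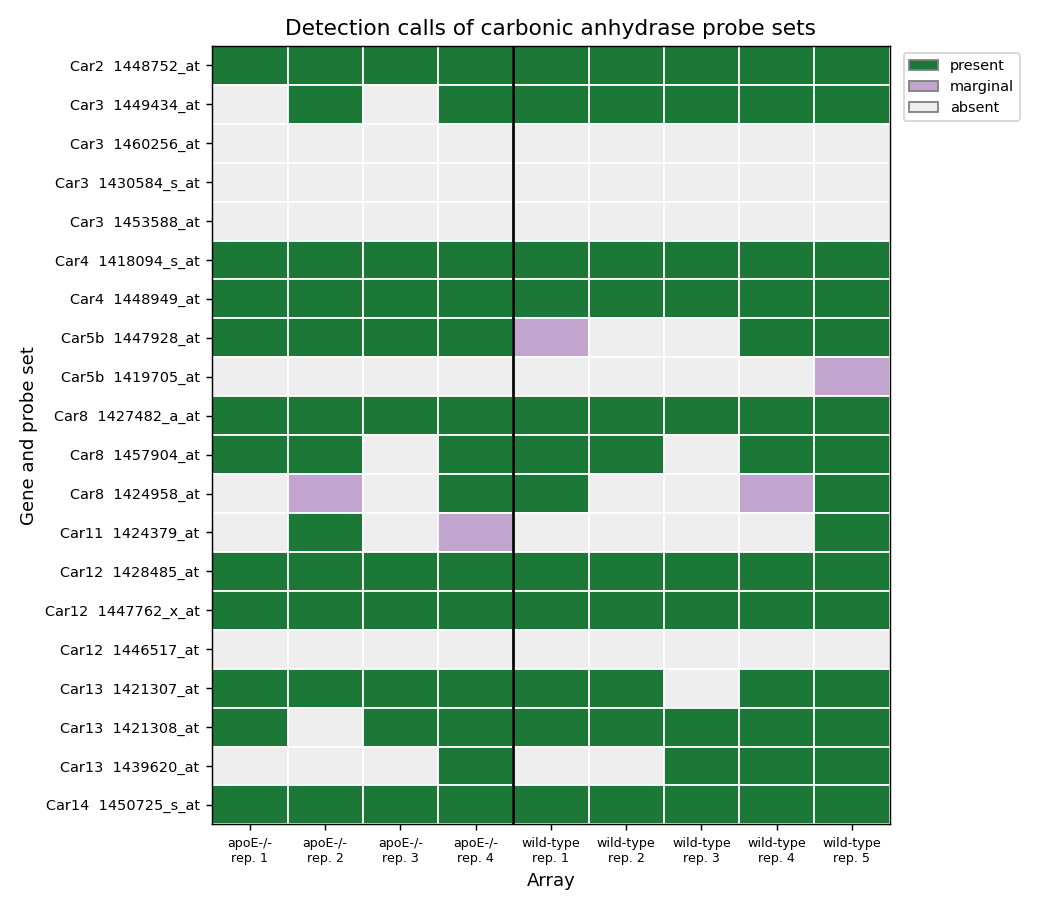
Detection call of each of the 20 carbonic anhydrase probe sets (rows) on each of the 9 arrays (columns, apoE-/- left of the line), in green for present, purple for marginal and grey for absent. The rows of Car2, Car4 and Car14 are green throughout, and 3 of the 4 rows of Car3 are never green.

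No carbonic anhydrase probe set differed between genotypes at the adjusted threshold. Of the 13 tested, 0 passed (limma, Benjamini-Hochberg adjusted p under 0.05 over all 21478 tested probe sets), where 2.59% of all tested probe sets passed. At an unadjusted p under 0.05 there were 4 of 13, or 30.8%, against 16.5% of all tested probe sets. These were Car14, 1 of the 2 tested probe sets of Car12 and 1 of Car5b, which read higher in apoE-/-, and 1 of the 3 of Car13, which read lower. The groups did not overlap for 1 of the 13, or 7.69%, the probe set of Car5b, against 6.89% of all tested probe sets. That Car5b probe set, also 1 of the 4 above, entered the test through the group where it was high. It was called present on all 4 apoE-/- arrays but 2 of 5 in wild-type. These counts are evidence neither of a difference nor of its absence. Over the 13 the median log2 difference, apoE-/- minus wild-type, was -0.17, against 0.0014 over all tested probe sets, and 4 read higher and 9 lower. Among the 9, Car3 1449434_at was admitted by its wild-type calls, present on 5 of 5 wild-type but 2 of 4 apoE-/- arrays. These counts are of probe sets and not genes, and the lower ones include every tested probe set of Car13, Car4 and Car8, which have more than 1 each. With each gene read by its brightest tested probe set, Car2, Car5b, Car12 and Car14 read higher and Car3, Car4, Car8 and Car13 lower.

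**Figure D2:**
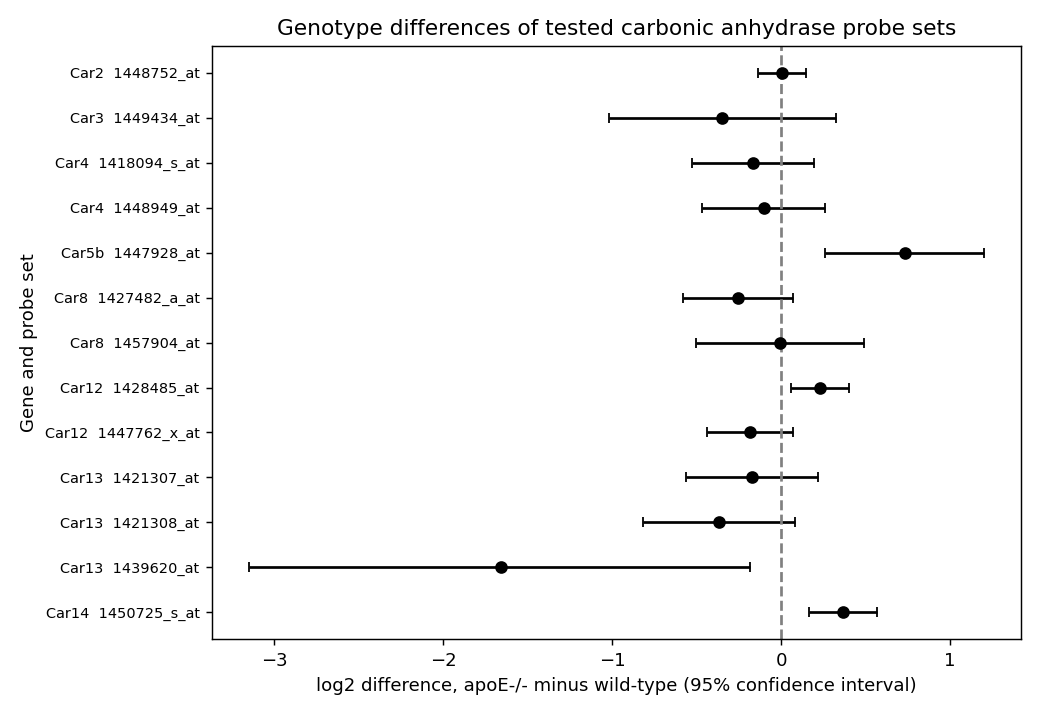
Log2 difference, apoE-/- minus wild-type (horizontal axis), with its 95% confidence interval (bars) for each of the 13 tested carbonic anhydrase probe sets (rows). The intervals of Car14, Car5b and 1 probe set of Car12 lie above 0, that of 1 probe set of Car13 lies below 0, and the other 9 include 0, all before adjustment for the number of probe sets tested.

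The 3 genes with a tested probe set that read higher in apoE-/- at an unadjusted p under 0.05 are Car12, Car14 and Car5b, and the 250 bases before the annotated start of each are shown for that reason, although Car5b entered the test only through its 4 present calls in apoE-/- (RefSeq, build GRCm38.p6, 5′ to 3′ on the gene's strand). The windows are chr9:66713436-66713685 on the plus strand for Car12, chr3:95904686-95904935 on the minus strand for Car14 and chrX:164028011-164028260 on the minus strand for Car5b. Capitals mark matches, on either strand, to the TATA box TATAAA, the GC box GGGCGG, the CCAAT box CCAAT, the core TAATCC bound by OTX2, a homeodomain factor of choroid plexus, and the core ACGTG of the hypoxia response element.

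Car12: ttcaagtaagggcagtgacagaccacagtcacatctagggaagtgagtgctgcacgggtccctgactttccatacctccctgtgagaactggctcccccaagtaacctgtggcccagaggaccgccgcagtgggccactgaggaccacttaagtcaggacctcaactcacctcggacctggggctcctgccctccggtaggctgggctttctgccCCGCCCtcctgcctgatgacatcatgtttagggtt
Car14: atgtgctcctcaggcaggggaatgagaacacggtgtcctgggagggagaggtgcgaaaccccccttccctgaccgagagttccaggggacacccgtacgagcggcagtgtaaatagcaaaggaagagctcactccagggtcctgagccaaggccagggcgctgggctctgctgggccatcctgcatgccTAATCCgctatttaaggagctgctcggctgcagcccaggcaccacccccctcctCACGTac
Car5b: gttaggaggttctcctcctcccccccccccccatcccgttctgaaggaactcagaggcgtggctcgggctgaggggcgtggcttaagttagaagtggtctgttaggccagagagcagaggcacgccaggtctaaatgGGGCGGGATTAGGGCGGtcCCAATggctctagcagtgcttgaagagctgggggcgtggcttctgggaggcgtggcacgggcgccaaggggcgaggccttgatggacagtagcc

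Car14 held 1 TAATCC, starting 61 bases before the start, and 1 ACGTG, starting 7 bases before it. Car12 held 1 GC box, starting 35 bases before the start. Car5b held 2 GC boxes, 1 CCAAT and 1 TAATCC, the last sharing 1 base with the first GC box. Of 32851 promoter windows of the same length, TAATCC was in 6.3%, ACGTG in 16.6%, GGGCGG in 32.7%, CCAAT in 33.8% and TATAAA in 12.4%. A match describes these letters only and is not a measured binding site. Of the other members, windows were held for Car4 and Car11, and none of these held a match to any of the motifs. Over all 6 member windows, TAATCC was in 2. Otx2 itself read lower in apoE-/-, with a log2 difference of -0.24 (limma, adjusted p = 0.14). Its part in the carbonic anhydrase readings was not tested.

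Car14, the membrane-spanning enzyme with its active site outside the cell, had the smallest p of the family. Its only probe set, 1450725_s_at, was called present on all 9 arrays, with deposited signals of 7634.3, 7665.6, 8119.3 and 6128.1 in apoE-/- replicates 1 to 4, against 5371, 6070.7, 5832.7, 6378.6 and 5223.4 in wild-type replicates 1 to 5. The first 3 apoE-/- arrays lay above every wild-type array, while apoE-/- replicate 4 lay below wild-type replicate 4, so the groups overlapped. After normalization the mean was 12.86 ± 0.19 in apoE-/- (SD, n = 4) and 12.49 ± 0.12 in wild-type (SD, n = 5), both log2 intensities. The log2 difference was 0.37 ± 0.09 (SE), or 1.29-fold with a 95% interval of 1.12 to 1.48, and it did not pass (limma, adjusted p = 0.0525). Without apoE-/- replicate 4 it was 0.46 and passed (adjusted p = 0.00983), and without apoE-/- replicate 3 it was 0.31 (adjusted p = 0.192). Over the 21 alternatives of scaling, filter, variance model and arrays the adjusted p ranged from 0.00983 to 0.192, and it was under 0.05 in 3, the others being array weights (0.0277) and a robust variance prior (0.0499).

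Macrophage markers also read higher in apoE-/-. Their list mean was 10.42, 10.41, 10.59 and 10.12 in apoE-/- replicates 1 to 4 and 9.65 to 10.10 in wild-type arrays. The array highest for both was apoE-/- replicate 3, and the lowest of the apoE-/- group for both was replicate 4. Among wild-type arrays the order differed. Replicate 1 was highest for the macrophage mean (10.10) but lowest for normalized Car14 (12.36, against 12.39 to 12.65 in the others). Of the 6 tested macrophage markers 2 passed by limma, and all 6 read higher in apoE-/-. Those 2 were Lyz2 with a log2 difference of 0.81 (adjusted p = 0.0154) and Ctss with 0.63 (adjusted p = 0.0179). Of 11089 genes read by their brightest tested probe set, 88 passed as higher and 96 as lower. The part of macrophages in the reading of Car14 was not tested.

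Car12, the other membrane-spanning enzyme, was read by 2 probe sets present on all arrays, and these differed in direction. Probe set 1428485_at had deposited signals of 12372.8, 12480.8, 14361.4 and 10737.6 in apoE-/- replicates 1 to 4, against 11449.4, 9944.4, 11645, 9816.9 and 10236.7 in wild-type replicates 1 to 5. The same 3 apoE-/- arrays as for Car14 lay above every wild-type array and replicate 4 fell among them. Its log2 difference was 0.23 ± 0.08 (SE), or 1.17-fold with a 95% interval of 1.04 to 1.32, and it did not pass (adjusted p = 0.155). Without apoE-/- replicate 3 the log2 difference was 0.16.

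The second Car12 probe set, 1447762_x_at, had signals of 1371.8, 1010.4, 1013.8 and 1172.6 in apoE-/- replicates 1 to 4, against 1326.8, 1183.9, 1219.1, 1527.1 and 1243.7 in wild-type replicates 1 to 5. Here 3 of the 4 apoE-/- arrays lay below every wild-type array, and replicate 1 lay above all but 1 of them. Its log2 difference was -0.18 ± 0.12 (SE, adjusted p = 0.473). The suffix of this probe set marks probes that can also bind transcripts of other genes. The log2 ratio of the first to the second probe set within an array was 3.45 ± 0.32 in apoE-/- (SD, n = 4) and 3.03 ± 0.19 in wild-type (SD, n = 5). This difference of 0.42 gave an exact permutation p = 0.0397 (two-sided, 126 splits), and 0.0794 adjusted over the 6 pairs of tested probe sets of 1 gene. Of the other 5 pairs, 2 gave the same p and adjusted p, those of Car13 1439620_at with 1421307_at (a difference of 1.49) and with 1421308_at (1.3), and the other 3 had an adjusted p of 0.333 to 0.667. Both Car13 pairs with that p rest on the dim 1439620_at, with an apoE-/- signal down to 2.6. It was called present on 1 of 4 apoE-/- and 3 of 5 wild-type arrays. The ratio test was prompted by the values and chosen after they were seen, so its p values are descriptive only, and no pair passed after adjustment. The third Car12 probe set, 1446517_at, was called absent on all 9 arrays, at signals of 6.9 to 20.2 in apoE-/- and 7.2 to 12.6 in wild-type.

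**Figure D3:**
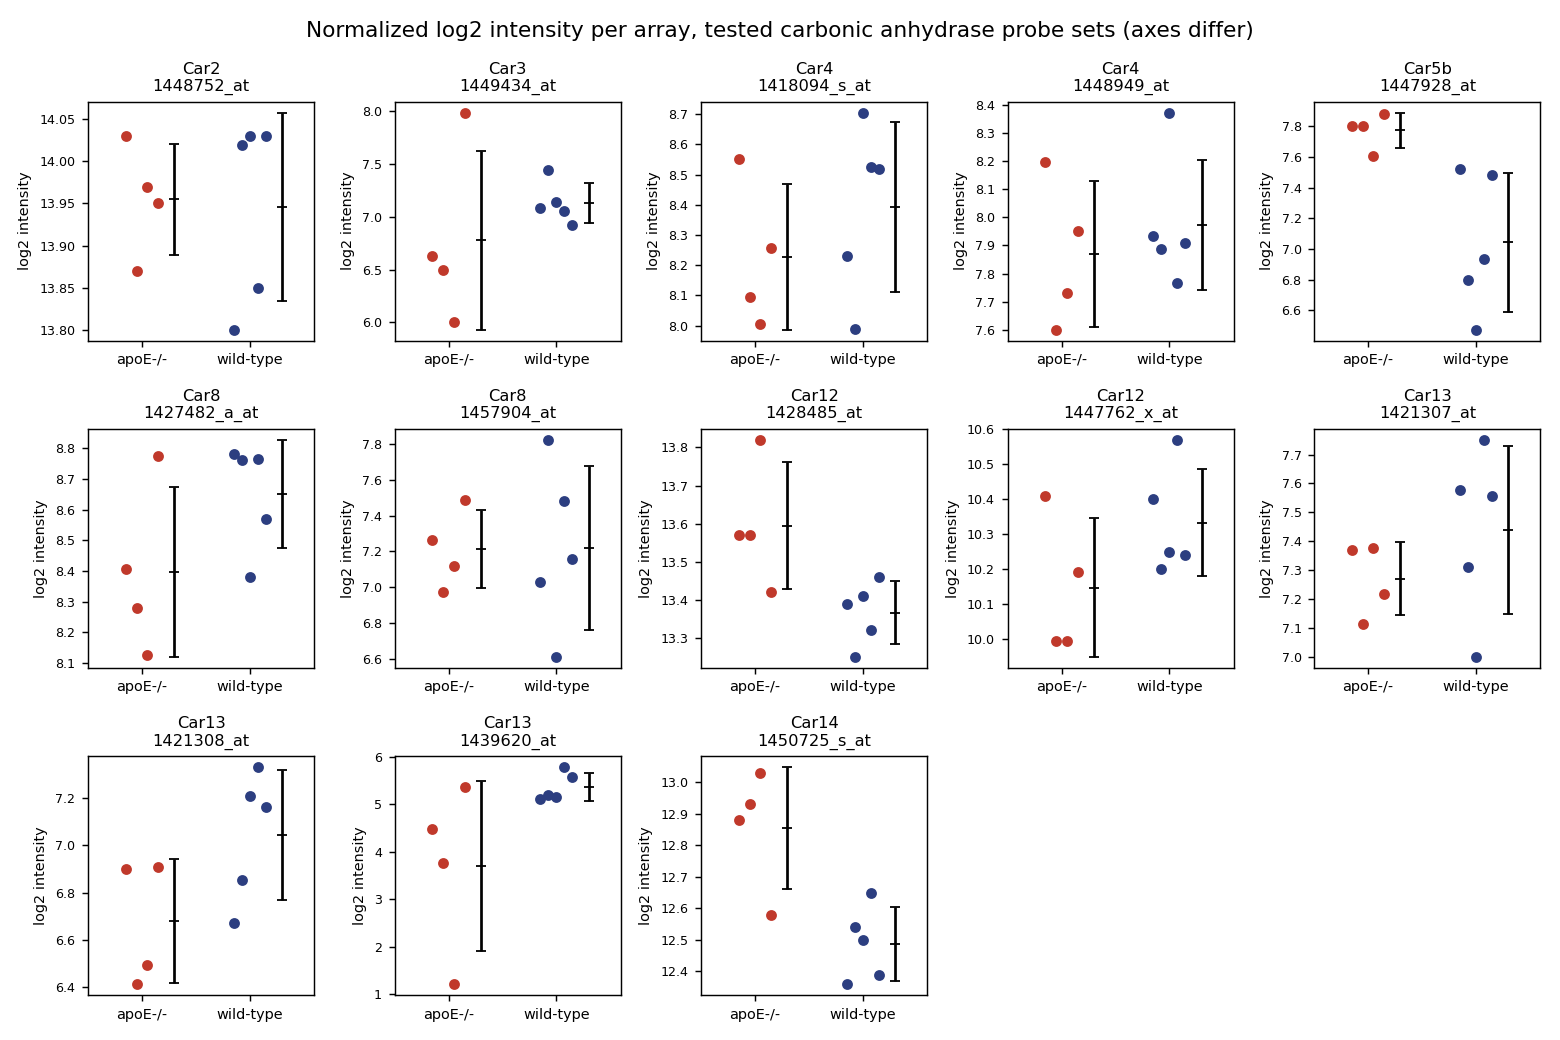
Normalized log2 intensity on each array (points, red for 4 apoE-/- and blue for 5 wild-type, vertical axes differ between panels) with the group mean and SD beside them (black) for the 13 tested probe sets. For Car14 and Car12 1428485_at, 3 of the 4 apoE-/- points lie above all wild-type points, and for Car5b all 4 do.

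Car4, the lipid-anchored enzyme found on capillary endothelium and on some epithelia, was read by 2 probe sets called present on all 9 arrays. Both read slightly lower in apoE-/-, by a log2 difference of -0.17 for 1418094_s_at (95% interval -0.53 to 0.20, adjusted p = 0.67) and -0.10 for 1448949_at (95% interval -0.47 to 0.26, adjusted p = 0.807). The signals of 1418094_s_at were 376, 290.6, 265.9 and 300.7 in apoE-/- replicates 1 to 4, against 303.2, 244.3, 411.3, 361.6 and 367.9 in wild-type replicates 1 to 5. Those of 1448949_at were 291.3, 209.3, 221.3 and 244 in apoE-/- replicates 1 to 4, against 246.1, 226.9, 325.5, 216.5 and 235 in wild-type replicates 1 to 5. Both probe sets were highest in wild-type replicate 3 and next highest in apoE-/- replicate 1. The endothelial list mean over 6 tested markers was 9.37 to 9.43 in apoE-/- and 9.18 to 9.45 in wild-type arrays, and wild-type replicate 3 was also its highest array. The next highest for that list was apoE-/- replicate 3, whose 1418094_s_at signal of 265.9 lay below all other arrays but wild-type replicate 2. The part of endothelium in the Car4 reading was not tested.

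Car2, the fast cytosolic enzyme, did not separate the genotypes. Its probe set 1448752_at had deposited signals of 17107.4, 15535.4, 16039.3 and 14999.4 in apoE-/- replicates 1 to 4, against 15345.8, 16621.3, 18124.9, 14080.4 and 14345.4 in wild-type replicates 1 to 5. The apoE-/- arrays fell within the wild-type range. The log2 mean was 13.95 ± 0.066 in apoE-/- (SD, n = 4) and 13.95 ± 0.11 in wild-type (SD, n = 5). The 95% interval of the difference, -0.13 to 0.15, or 0.911-fold to 1.11-fold, includes 0 (adjusted p = 0.974). Car2 is also a gene of oligodendrocytes and red cells. With the oligodendrocyte and neuron marker mean of each array as a covariate the Car2 difference was -0.029 (adjusted p = 0.875). Of the 3 red cell markers on the array, Hba-a1 and Alas2 were never called present, while Slc25a37 was called present on all 9 arrays and read 7.97 to 8.41 in apoE-/- and 7.62 to 8.44 in wild-type arrays on the log2 scale. Its part in the Car2 reading was not tested.

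Car3, a cytosolic enzyme of low activity that is abundant in skeletal muscle and fat, had 4 probe sets, of which 3 were never called present. The remaining one, 1449434_at, had signals of 91.7, 100.6, 69 and 250.2 in apoE-/- replicates 1 to 4, against 133.6, 165.7, 142.3, 133.8 and 116 in wild-type replicates 1 to 5. It was called present on 2 of 4 apoE-/- and 5 of 5 wild-type arrays. The wild-type calls, from the group where it read higher on average, were thus what admitted it to the test. Of the apoE-/- arrays, 3 lay below the wild-type range and replicate 4 lay above it. The log2 difference was -0.35 ± 0.32 (SE, adjusted p = 0.624), or -0.75 without apoE-/- replicate 4 (adjusted p = 0.0872) and -0.091 without apoE-/- replicate 3 (adjusted p = 0.949). Of 6 skeletal muscle markers 5 were never called present and 0 were tested, and of the 3 fat cell markers on the array Adipoq and Retn were never called present. The other, Fabp4, was called present on all 9 arrays and read 6.80 to 7.41 in apoE-/- and 6.52 to 7.38 in wild-type arrays on the log2 scale. Its part in the Car3 reading was not tested.

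Car13, a cytosolic enzyme, had 3 tested probe sets that all read lower in apoE-/- without passing. Probe set 1421307_at had signals of 160, 152.7, 174.9 and 147.7 in apoE-/- replicates 1 to 4, against 192.4, 151.1, 129, 214.6 and 181.7 in wild-type replicates 1 to 5, and its groups overlapped (log2 difference -0.17, adjusted p = 0.688). Probe set 1421308_at had 113, 94.5, 96.1 and 118.4 in apoE-/- replicates 1 to 4, against 99.9, 109, 148.8, 161 and 137.5 in wild-type replicates 1 to 5. Its 3 highest arrays were wild-type, and its log2 difference was -0.37 (adjusted p = 0.416). The dimmest, 1439620_at, had 18.8, 15, 2.6 and 41 in apoE-/- replicates 1 to 4, against 34.1, 33.4, 37.5, 58 and 46.9 in wild-type replicates 1 to 5. It was called present on 1 of 4 apoE-/- and 3 of 5 wild-type arrays. Its log2 difference of -1.66 ± 0.69 (SE, adjusted p = 0.244) was -0.83 without apoE-/- replicate 3 and was -0.80 with 16 added to each signal. On chromosome 3 the annotation places Car13, Car1, Car3 and Car2 next to each other in that order, and Car1 was never called present.

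Car5b, the mitochondrial enzyme, is X-linked and was read by 2 probe sets that did not match. Probe set 1447928_at had signals of 219.5, 240.1, 204.1 and 231.6 in apoE-/- replicates 1 to 4, against 184.9, 105.2, 91.1, 123.7 and 172.9 in wild-type replicates 1 to 5. All apoE-/- arrays lay above all wild-type arrays, and 4 of 4 apoE-/- but 2 of 5 wild-type arrays were called present, so the 4 apoE-/- calls alone admitted it to the test. The log2 mean was 7.77 ± 0.12 in apoE-/- (SD, n = 4) and 7.04 ± 0.45 in wild-type (SD, n = 5). The log2 difference of 0.73 ± 0.22 (SE), or 1.66-fold with a 95% interval of 1.2 to 2.3, did not pass (limma, adjusted p = 0.1). With array weights it did (adjusted p = 0.0425), and in the other 19 alternatives that tested it the adjusted p was 0.0587 to 0.215. The second probe set, 1419705_at, was never called present, with 94.5, 114.7, 94.5 and 124.8 in apoE-/- replicates 1 to 4, against 96.5, 114.3, 195, 76.2 and 196.8 in wild-type replicates 1 to 5.

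The related proteins without activity were Car8, which binds an inositol trisphosphate receptor and is best known from Purkinje cells, and Car11. Car8 probe set 1427482_a_at was called present on all arrays, with signals of 340.1, 328.3, 289 and 435.2 in apoE-/- replicates 1 to 4, against 442.7, 423.1, 326.9, 429.5 and 382.4 in wild-type replicates 1 to 5. Replicate 4 was the only apoE-/- array among the 4 highest. The log2 difference was -0.26 (95% interval -0.58 to 0.070, adjusted p = 0.433), and that of 1457904_at was -0.0078 (adjusted p = 0.992), with a sign that turned with the deposited scaling only, with 75th-percentile scaling, with the marker covariate and without any of 4 single arrays. The third, 1424958_at, was called present on 1 of 4 apoE-/- and 2 of 5 wild-type arrays, at 94.5 to 135.6 against 94.7 to 141.8. Of the 3 Purkinje markers on the array Pcp2 and Pvalb were never called present. The other, Calb1, was called present on 8 arrays and read 7.55 to 8.31 in apoE-/- and 7.66 to 8.29 in wild-type arrays on the log2 scale. Its part in the Car8 readings was not tested. Car11, on chromosome 7 as Apoe is, had signals of 381.9, 319.8, 437.7 and 297.4 in apoE-/- replicates 1 to 4, against 161.9, 252.5, 259.6, 265.8 and 350.6 in wild-type replicates 1 to 5. It was called present on only 1 of 4 apoE-/- and 1 of 5 wild-type arrays and was not tested. Nor was any part of the shared chromosome in its reading tested.

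Among the rest of the family, 5 of 9 genes were tested and 0 passed by limma, with 0 at an unadjusted p under 0.05. Of 11089 genes read by their brightest tested probe set, 88 passed as higher and 96 as lower. At an unadjusted p under 0.05 there were 16.5% of all tested probe sets. Car10, another related protein without activity, had a probe set called present on all 9 arrays (log2 difference -0.073, adjusted p = 0.775). Its other probe set, called present on 7 arrays, read the other way (0.31, adjusted p = 0.368). The cytosolic Car7 also had a probe set called present on all 9 arrays (-0.19, adjusted p = 0.613), but the other Car7 probe sets were never called present. Car9, a membrane enzyme induced by low oxygen, was called present on 6 arrays and read 0.049 (adjusted p = 0.917). The receptor phosphatase Ptprz1, which carries a carbonic anhydrase-like domain, read 0.15 (adjusted p = 0.804) by its only probe set that was ever called present. The tested probe sets of Ptprg differed in direction, from -0.39 to 0.45 (limma, adjusted p = 0.211 to 0.922). Car1, Car5a, Car6 and Car15 were never called present. Car9 and Car12 are both known from hypoxia responses, and of 11 tested hypoxia-induced genes 0 passed, with a median log2 difference of -0.057 and P4ha1 lowest in p at -0.41 (adjusted p = 0.227).

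No tested gene of bicarbonate and proton transport, the step that uses the enzymes' products, passed in apoE-/- against wild-type. Of 19 list entries 7 were tested and 0 passed by limma. Of 11089 genes read by their brightest tested probe set, 88 passed as higher and 96 as lower. Of the 7, 3 had an unadjusted p under 0.05, where 16.5% of all tested probe sets did, a share over probe sets and not genes. All 7 had a log2 difference above 0, down to 0.003 for Slc4a5, and the median log2 difference was 0.25, against 0.017 over 11089 genes each read by its brightest tested probe set. The scaffold Slc9a3r1, which binds sodium-proton exchangers, read 0.30 (adjusted p = 0.116), the lactate and proton carrier Slc16a1 0.34 (adjusted p = 0.142) and the chloride-bicarbonate exchanger Slc4a2 0.26 (adjusted p = 0.171). Slc4a11 read 0.22 (adjusted p = 0.45). The list mean per array was 11.40 to 11.53 in apoE-/- and 11.12 to 11.34 in wild-type arrays, and apoE-/- replicate 4 was the lowest of its group, as it was for Car14 and Car12 1428485_at. Of 14 tested genes of ion and water transport 0 passed and 2 had an unadjusted p under 0.05, with a median of 0.051. That share is below the 16.5% of probe sets. Among the 14 genes the potassium-chloride cotransporter Slc12a4 read 0.46 (adjusted p = 0.0899), the sodium-potassium-chloride cotransporter Slc12a2 0.15 (adjusted p = 0.281), the sodium pump subunit Atp1b2 -0.24 (adjusted p = 0.337) and Clic6 0.11 (adjusted p = 0.358).

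**Figure D4:**
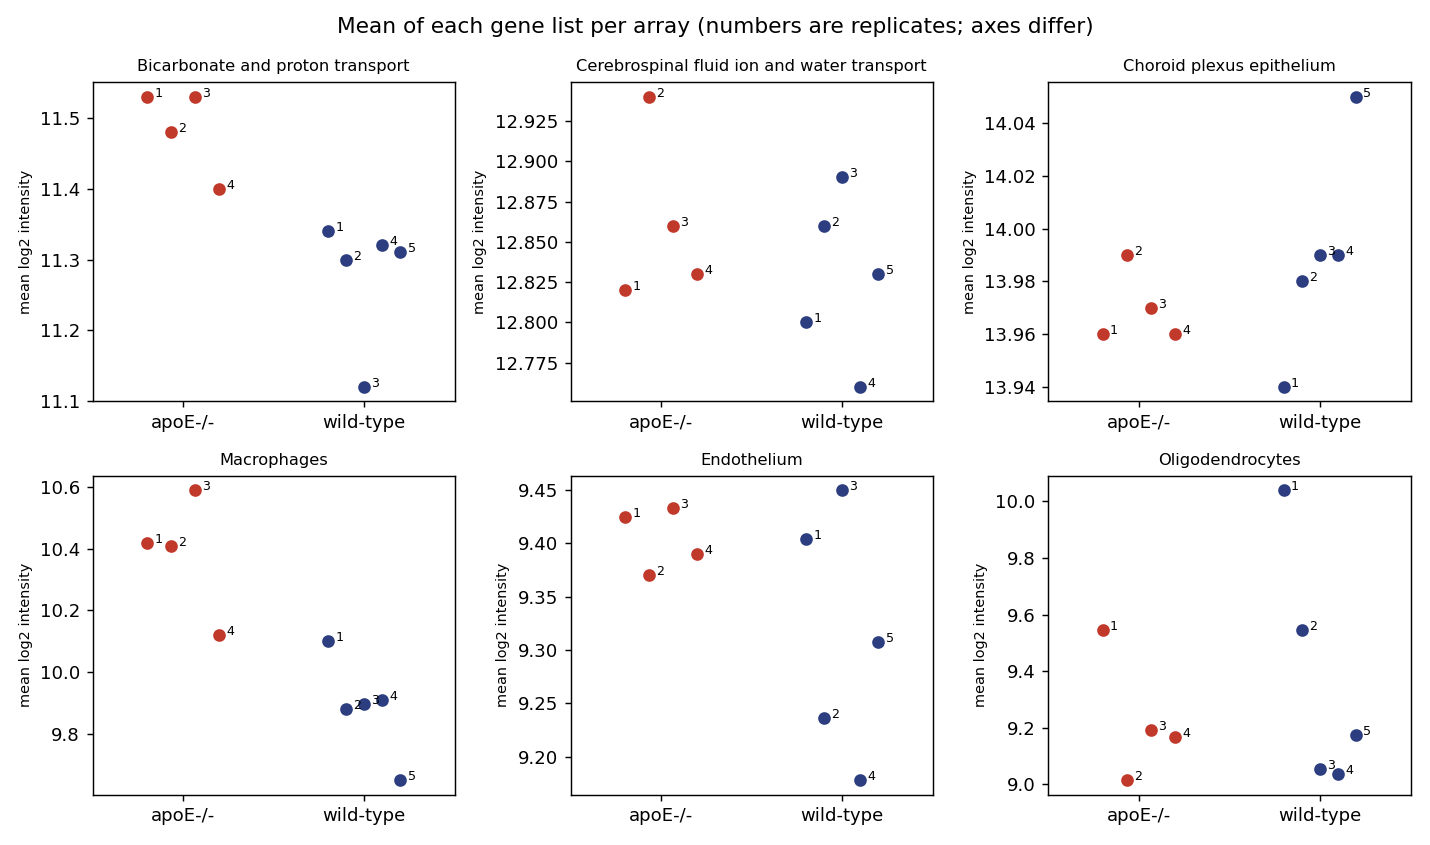
Mean log2 intensity of 6 gene lists on each array (numbered points are replicates, red for apoE-/- and blue for wild-type, vertical axes differ). The bicarbonate mean spans 11.40 to 11.53 in apoE-/- and 11.12 to 11.34 in wild-type arrays, the macrophage mean 10.12 to 10.59 and 9.65 to 10.10, and the groups overlap in the other 4 panels.

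Across the 9 arrays, the genes outside the family whose pattern was most like Car14 were Gm9112 (Pearson r = 0.959), Abcd3 (0.954), a peroxisomal fatty acid transporter, and Krt81 (0.95), out of 11081 genes searched. For Car12 1428485_at they were the translation factor Eif4b (0.965), Prr32 (0.958) and M6pr (0.957), a receptor that sorts lysosomal enzymes. For Car2 they were Mrps27 (0.902), E530011L22Rik (0.897) and Cfap161 (0.892). Spearman's rho for these pairs was 0.78 to 0.996. These are the highest of many correlations over 9 arrays that include the genotype difference and the shared scaling of each array, and they describe likeness of pattern only.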

How the data were processed

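Choroid plexus RNA of 4 apoE-/- and 5 wild-type samples was measured on 1 array each. Per the labels' protocols, RNA of laser-captured tissue was extracted with Trizol and a column kit, then transcribed in vitro into labelled RNA. Per the submitters' processing notes GCOS 1.4 was used. The authors deposited a linear signal intensity and a detection call for each of 45101 probe sets. How background was handled and probes were summarised is not given in the sources used here. All arrays had the same mean, 500, once 2% of probe sets were trimmed from both ends, so the deposited intensity was already scaled. The 2 deposited tables held equal values in all 405909 cells, no pair of arrays was identical, and the 9 detection p columns were not used (18 values above 1). Each call column followed best, probe set by probe set, the signal column it stands behind.

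Intensities were taken to log2 and quantile normalized, because array medians ranged over 0.214 (limit 0.1). The 64 controls were normalized with the rest and left out of the test. Genotypes were compared by limma 3.58.1 under R 4.3.3 (mean-variance trend, genotype only, two-sided) and Benjamini-Hochberg adjustment over all 21478 probe sets called present on at least 4 arrays. The number of arrays limits the precision. The platform annotation gave 1 symbol to 34958 probe sets, several to 932 and none to 9211, and all 20 member probe sets matched a RefSeq gene by gene ID. Lists read each gene by its brightest tested probe set. All members are named, as are up to 4 genes of smallest p per pathway list and the 3 most similar genes for Car2, Car12 and Car14. The members, lists and tests were chosen with earlier results of these data known. The limma step was tested on simulated data. Alternatives were other scalings, filters, an offset of 16, variance priors, array weights, the replicate number as a block, a marker covariate and each array left out.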

Additional observations from a re-analysis of the deposited data

Results flagged for a closer look

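A single array stood apart within its group in the 26 groups of values checked, 2 groups for each of the 13 tested carbonic anhydrase probe sets. Car4 1448949_at read 8.37 on the log2 scale in wild-type replicate 3, while the other 4 wild-type arrays read 7.77 to 7.93. The gap was 0.724 of the group's range, above the limit of 0.71 for 5 samples. By chance about 1 group in 20 exceeds such a limit. Without wild-type replicate 3 the log2 difference of this probe set, apoE-/- minus wild-type, was -0.0047 (adjusted p = 0.992), against -0.10 with all arrays.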

How the results depend on the processing

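No carbonic anhydrase probe set was called lower under any alternative that was run. The number called higher, 0 of 13 with the settings reported, was 1 with robust eBayes, 2 with array weights, and 0 to 1 over the runs that each left out 1 array, where the 1 was Car14 without apoE-/- replicate 4. Of 263 values of single probe sets under the alternatives, 248 kept direction and side of the threshold, 4 passed it and 11 changed sign. The sign changes were all in the differences nearest 0. Car2 read -0.0287 with the oligodendrocyte and neuron marker mean as a covariate and -0.0302 to 0.0345 with 1 array left out. Car8 1457904_at read 0.0517 with the deposited scaling only, 0.0272 with the 75th percentile, 0.0133 with the marker covariate and -0.161 to 0.143 with 1 array left out. Over all tested probe sets, 144 were higher and 412 lower in apoE-/-. These numbers were 81 and 248 with no filter, where more probe sets were tested, 57 and 252 without the mean-variance trend, 372 and 706 with array weights, and 64 and 67 with 1 probe set per gene. With 1 array left out they were 55 to 246 and 204 to 540, the number higher moving by over 1.5 times when any apoE-/- array, wild-type replicate 2 or wild-type replicate 4 was left out, and the number lower when this was apoE-/- replicate 3, wild-type replicate 2 or wild-type replicate 4. The filter and the reading of 1 probe set per gene change how many are tested, and for the rest the cause was not tested. No label says that the replicate numbers pair the samples. Deviations of same-numbered arrays correlated at -0.015 to 0.16, over 0.1 in 1 of 4 pairs, which cannot exclude a pairing. With the replicate block 176 probe sets were higher and 421 lower, and 0 carbonic anhydrase probe sets passed, Car14 having an adjusted p of 0.103. Dim probe sets fell below the filter in some runs and gave no value there, Car13 1439620_at most often. Probe sets called absent on some arrays, among them those of Car3, Car5b and Car13, are limited by signal over background.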
